A study of Brassica rapa subsp. pekinensis with 2 samples.

Results

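In flower buds of Chinese cabbage, 96 of 41019 genes with Bra identifiers were abundant in fertile buds and left a small signal in sterile buds. They were chosen by their RPKM, the reads of a gene scaled to its length and to the size of the library. A gene was taken when it had at least 100 RPKM in fertile buds, was above 0 in sterile buds and was at least 8-fold lower there. In all, 115 genes met these limits. Of them, 17 named in the authors' pathway table and 2 in 3 runs of identifiers described elsewhere were left out. The remaining 96 genes are termed weakly retained genes here. None of them carries a name in the tables used, so they are given by identifier and no role is assigned to them. Since both libraries chose these genes, their levels and folds are a description and were not tested.

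The plants belong to AB02, a male sterile AB line of Brassica rapa subsp. pekinensis, which segregates sterile and fertile plants through a multiple-allele system in the nucleus. Messenger RNA of buds was sequenced from 1 library of sterile buds (AB02-S) and 1 library of fertile buds (AB02-F), both labelled male and grown from vernalized seed in a greenhouse. The sources used here did not give the stage or number of the buds. With 1 library in each group no difference has a replicate check. The deposited values imply 1567647 reads for the sterile and 1803154 reads for the fertile library, if gene lengths are multiples of 3 bp. A single read in a gene of 1 kb was then worth 0.638 RPKM in the sterile and 0.555 RPKM in the fertile library. Over the 25685 genes above 0 in both libraries, the median log2 ratio of sterile over fertile was 0.20, which is the ratio that equal read numbers give at these totals.

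An angiosperm bud holds sepals, petals, pistil and stamens, and in the stamens pollen develops from microspores that the tapetum, a nurse layer of the anther, feeds and coats. Many genes of the tapetum and of pollen are expressed in these cells alone and at very high levels. In a bud whose pollen fails, such transcripts can be missing because the cells are fewer or because each cell holds less of the RNA. In RNA from whole buds these cannot be told apart. Of marker codes from Arabidopsis, the files pair 1 of 15 for tapetum and pollen wall, 2 of 5 for late pollen, 0 of 4 for sepals and 0 of 2 for the pistil. Of the genes so paired, only the tapetum gene met the value limits, and it was left out as a named gene. The late pollen genes did not meet the value limits. The tapetum gene Bra003795 (CYP98A8), an enzyme that makes phenolamides for the pollen coat, had 50.3 RPKM in sterile and 1200 RPKM in fertile buds. Both copies of the pollen tube wall gene PPME1, Bra009265 and Bra028699, were at 0 in sterile buds, against 400 and 168.1 RPKM in fertile buds. The pectate lyase gene AT59 was at 0 and 0.463 RPKM in sterile buds in its copies Bra026221 and Bra016700, against 25 and 58.8 RPKM in fertile buds. The sepal and pistil markers were not paired with a gene. Names came only from the authors' own lists of selected genes, so these pollen and tapetum values are a description and do not check the labelled tissue.

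The weakly retained genes stood between 0.347 and 205.4 RPKM in sterile buds, with a median of 3.37, and between 101.2 and 5136 RPKM in fertile buds, where the median was 328.2. Their level in sterile buds was 1.36% of that in fertile buds at the median, a log2 ratio of sterile over fertile of -6.20. Among the 2173 genes with at least 100 RPKM in fertile buds and above 0 in sterile buds, the median was 200.7 RPKM in sterile buds and the median log2 ratio 0.19. Of these 2173 genes 5.29% were lower in sterile buds by 8-fold or more, and of the 25685 genes above 0 in both libraries 1.87% were. This is the limit that chose the 96 and so says nothing further about them. The 96 genes held 0.114% of the summed RPKM of all genes in sterile and 5.99% in fertile buds. In sterile buds 17 of them lay under 1 RPKM, 54 between 1 and 10, 16 between 10 and 50, and 9 at 50 or more. Only 24 of the 96 exceeded 10.2 RPKM, the median of all genes above 0 in sterile buds.

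**Figure D1:**
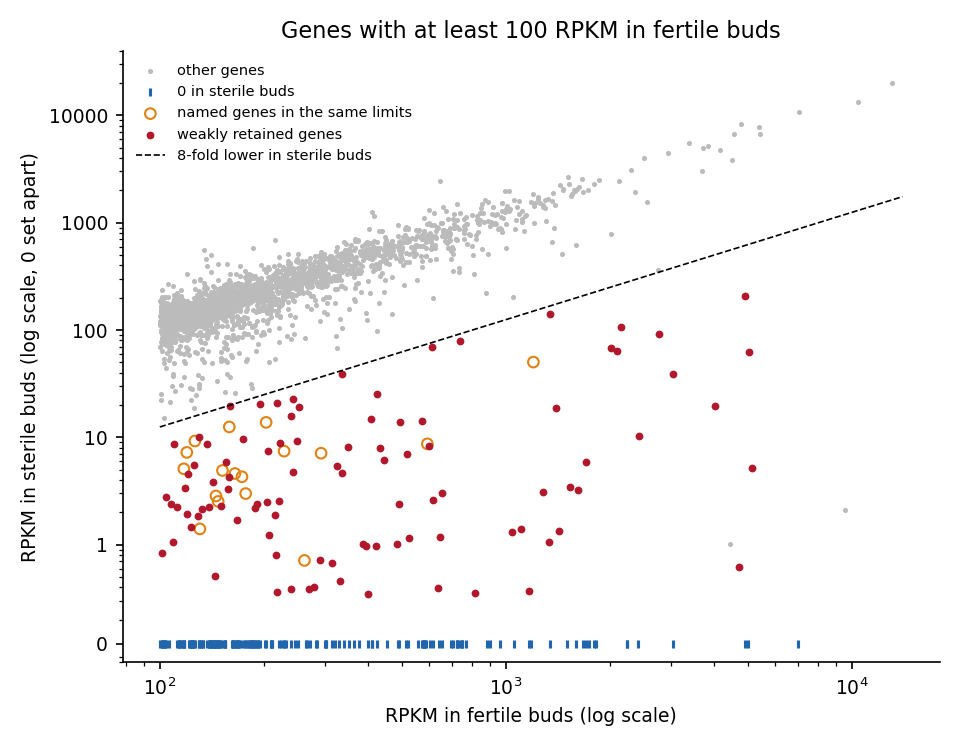
RPKM in sterile buds against RPKM in fertile buds, both on log axes, for every gene with at least 100 RPKM in fertile buds. The 96 weakly retained genes (red) lie below the dashed 8-fold line at 0.347 to 205.4 RPKM in sterile buds, the 17 named genes within the same limits are open circles, genes at 0 in sterile buds are ticks at the bottom, and the grey points below the line are the 2 genes in the identifier runs left out.

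The signal in sterile buds was concentrated in a few genes. The 6 highest held 48.5% of the summed sterile RPKM of the 96. Bra021109 had 205.4 RPKM in sterile and 4903 RPKM in fertile buds. It was 23.9-fold lower in sterile buds, with a 95% counting interval from 22.2 to 25.7, and it kept 4.19% of its fertile level. With at least 795 sterile reads it was the best measured of the weakly retained genes. In spite of the lower level it ranked 1074 among all genes in sterile buds, against rank 11 in fertile buds. Bra040780 had 141 RPKM in sterile and 1343 RPKM in fertile buds, and it was 9.52-fold lower in sterile buds (interval 7.35 to 12.5). Bra012848 followed with 106.3 RPKM in sterile and 2147 RPKM in fertile buds. Its fold of 20.2 had an interval from 15.6 to 26.6. These 3 were the weakly retained genes above 100 RPKM in sterile buds.

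Below them, Bra019004 had 92.1 RPKM in sterile and 2767 RPKM in fertile buds, a fold of 30 (interval 22.8 to 40.4). Bra015048 had 79.3 RPKM in sterile and 734.4 RPKM in fertile buds, and Bra022418 had 69.3 RPKM in sterile and 611.6 RPKM in fertile buds. Both were close to the 8-fold limit, at 9.26-fold (interval 7.23 to 12) for Bra015048 and 8.82-fold (interval 7.44 to 10.5) for Bra022418. The 6 genes highest in sterile buds thus held 2 kinds, 3 that were also among the 10 highest in fertile buds and 3 that were among the 6 with the smallest fold.

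Other genes of the 10 highest in fertile buds kept far less. Bra036578, the highest of the set in fertile buds, had 5.19 RPKM in sterile and 5136 RPKM in fertile buds. It rested on 2 sterile and 2278 fertile reads and was 990-fold lower in sterile buds, with an interval from 273.8 to 8182. Bra040627 had a like level in fertile buds and kept more of it, with 62 RPKM in sterile and 5039 RPKM in fertile buds. Its fold of 81.3 had an interval from 56.1 to 122.5, which does not meet that of Bra036578. Bra027246 had 0.616 RPKM in sterile and 4707 RPKM in fertile buds. Its fold of 7638 was the largest of the set, but with a minimum of 1 sterile read its interval ran from 1370 to 301703. Genes of nearly equal level in fertile buds therefore ranged from 0.0131% of that level in Bra027246 to 4.19% in Bra021109.

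Of the rest of these 10, Bra038343 had 19.6 RPKM in sterile and 4006 RPKM in fertile buds, a fold of 204.6 (interval 121.7 to 374.6). Bra038907 had 39 RPKM in sterile and 3032 RPKM in fertile buds, a fold of 77.8 (interval 51.2 to 124.4). Bra014611 had 10.3 RPKM in sterile and 2427 RPKM in fertile buds, on 3 sterile reads. The last of the 10, Bra026541, lay nearer to the genes with high sterile levels. It had 63.9 RPKM in sterile and 2099 RPKM in fertile buds, a fold of 32.8 (interval 25.3 to 43.4).

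The largest folds belonged to genes at the detection limit in sterile buds. After Bra027246 came Bra014410, with 0.369 RPKM in sterile and 1167 RPKM in fertile buds, or 1 against 3636 reads. Its fold of 3161 had an interval from 567 to 124891. Bra040474 had 0.356 RPKM in sterile and 813.8 RPKM in fertile buds, a fold of 2285 (interval 409.7 to 90277). Bra039045, Bra025130 and Bra025355 also had 1 sterile read each, and their folds were 1621, 1264 and 1155. The lower ends of their intervals were 290.7 for Bra039045, 226.5 for Bra025130 and 206.9 for Bra025355, so the order of these genes by fold is not settled by their reads.

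At the other end, the genes just inside the limit of 8 were Bra026350, Bra000785 and Bra022418. Bra026350 had 19.6 RPKM in sterile and 159.4 RPKM in fertile buds, a fold of 8.15 (interval 4.86 to 14.6). Bra000785 had 38.9 RPKM in sterile and 337 RPKM in fertile buds, a fold of 8.66 (interval 6.64 to 11.5). Bra017248, the fifth of the 6 smallest, had 20.7 RPKM in sterile and 195.1 RPKM in fertile buds, a fold of 9.44 on 7 sterile reads. Just outside the limit, Bra041148 had 363.6 RPKM in sterile and 2756 RPKM in fertile buds, a fold of 7.58. Bra037731 and Bra008267 followed at 6.84-fold and 6.63-fold. By level in fertile buds, the lowest genes taken in were Bra040241 at 101.2 RPKM, Bra040393 at 103.9 RPKM and Bra036816 at 108 RPKM, with 0.837, 2.78 and 2.39 RPKM in sterile buds. Those just under 100 RPKM in fertile buds were Bra008817 at 98.9, Bra000566 at 98 and Bra023360 at 97.8 RPKM, and they were 17.8-fold, 129.5-fold and 14.3-fold lower in sterile buds. The limits thus cut through a continuous range on both sides.

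The folds spread widely. They ran from 8.15 to 7638, so the largest was 937 times the smallest, with a median of 73.5 and quartiles of 29.2 and 403.9. By doublings of the fold, 13 genes lay between 8 and 16, 13 between 16 and 32, 17 between 32 and 64 and 18 between 64 and 128. Beyond that, 6 lay between 128 and 256, 13 between 256 and 512, 9 between 512 and 1024 and 7 above. Among all 2173 genes with at least 100 RPKM in fertile buds and above 0 in sterile buds, 71 lay between 2 and 4 and 25 between 4 and 8, so the numbers fell steeply up to 8 and were then nearly level up to 128. In that background 2.67% of genes were at least 64-fold lower in sterile buds.

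**Figure D2:**
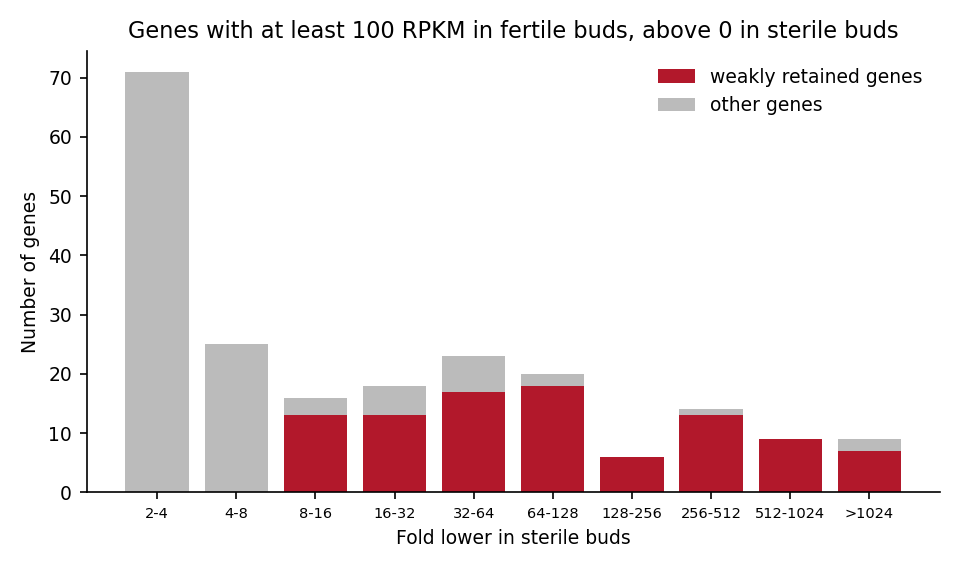
Number of genes by fold lower in sterile buds, in doublings, among genes with at least 100 RPKM in fertile buds and above 0 in sterile buds. Red marks the 96 weakly retained genes and grey the other genes: the 71 and 25 genes below 8-fold are all grey, while the red bars hold 13 to 18 genes in each class from 8 to 128.

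Reads set how far these folds can be told apart. Whole reads were recovered exactly for 90 of the 96 genes and as a minimum for 6. In sterile buds 27 genes rested on 1 read, 11 on 2 and 9 on 3, and for 2 of these 47 genes the number is a minimum. A further 21 had 4 to 10 sterile reads and 28 had over 10. The 47 genes with 3 or fewer sterile reads had a median fold of 403.4, and the other 49 had a median fold of 30. Sterile reads are the divisor of the fold, so a larger fold with fewer of them follows largely from this split. Median levels in fertile buds were closer, at 279.6 RPKM for the 47 and 349.3 RPKM for the 49. The counting interval lay wholly past 8-fold for 83 genes, past 16-fold for 66 and past 64-fold for 32, and it lay wholly under 64-fold for 26. For 13 genes it reached under 8-fold. Some of these 13 had many reads and a fold near the limit, such as Bra022418 with 147 sterile and 1492 fertile reads. Others had few, such as Bra036816 with 1 sterile and 52 fertile reads, whose fold of 45.2 had an interval from 7.76 to 1820. The intervals cover counting error only, since each group has 1 library. They treat reads as independent molecules, which sequencing reads are not, so they may be too narrow. They also make no allowance for the choice of the genes by these same reads. The counts against 8-fold thus describe the set and do not test that limit.

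**Figure D3:**
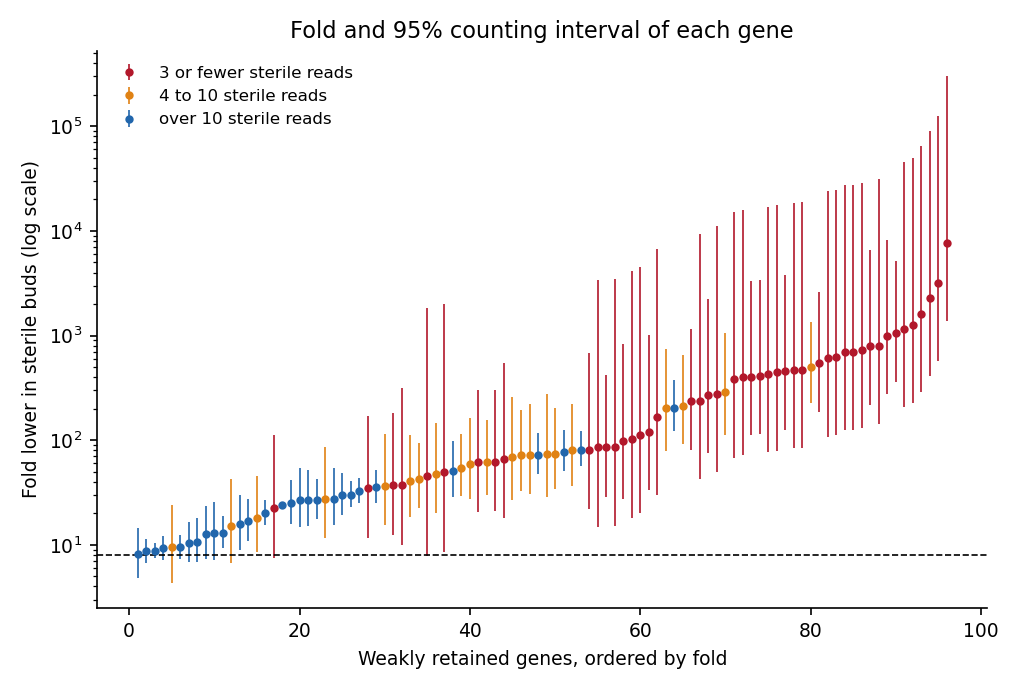
Fold lower in sterile buds (log axis) for the 96 weakly retained genes in order of fold, with 95% counting intervals of the reads. Colour gives the sterile reads: the 28 genes with over 10 reads (blue) sit mostly below 100-fold with short bars, and the 47 with 3 or fewer (red) reach from 22.6-fold to 7638-fold with long bars.

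Few sterile reads also blur the line between these genes and those at 0. Under the same exclusions, 108 genes had at least 100 RPKM in fertile buds and 0 reads in sterile buds. Set against 3 sterile reads, these 108 were at least 11.6-fold to at least 1465-fold lower there, with a median bound of 61.4. That range covers most folds of the weakly retained genes. The weakly retained genes had more fertile reads, with a median of 513 against 212 for the genes at 0, and were longer, with a median of 703.5 bp against 529.5 bp. Of genes with under 250 fertile reads 26 were weakly retained and 61 at 0, so 29.9% were weakly retained. From 250 to under 1000 fertile reads the share was 56.1%, and with 1000 or more it was 68.6%, or 24 against 11 genes. The part of read depth and gene length in this split was not tested.

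A high fertile count did not always bring sterile reads. The 108 genes at 0 in sterile buds had up to 5055 fertile reads, while genes with exactly 1 sterile read had from 52 to 3636 fertile reads. Hence the sterile reads were not a fixed share of the fertile reads.

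**Figure D4:**
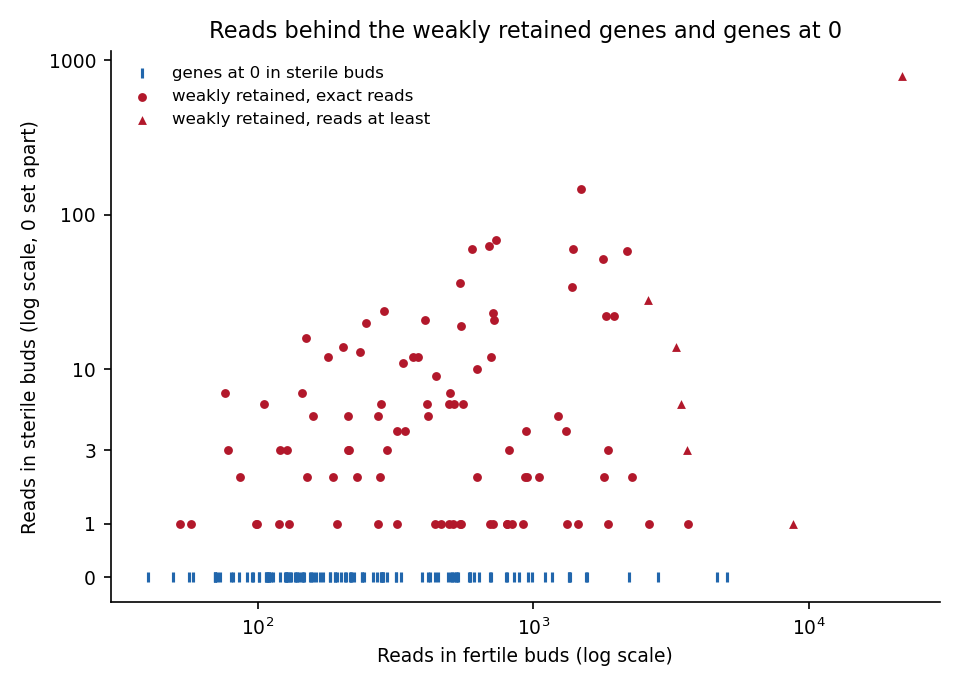
Reads in sterile buds against reads in fertile buds, on log axes, for the 96 weakly retained genes (red, triangles where the reads are a minimum) and the 108 genes at 0 in sterile buds (blue ticks). Bra025130 with 1 and Bra022418 with 147 sterile reads lie at 1454 and 1492 fertile reads, the 108 genes at 0 reach 5055 fertile reads, and Bra021109 stands alone at 795 sterile and 21828 fertile reads.

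Along the level in fertile buds, the sterile medians of the lower classes were close to each other. The 28 genes with 100 to 200 RPKM in fertile buds had a median of 2.58 RPKM in sterile buds, with a range from 0.516 to 20.7. The 35 genes with 200 to 500 RPKM in fertile buds had a sterile median of 2.56 RPKM, and the 11 with 500 to 1000 had 3.06 RPKM. For the 22 genes above 1000 RPKM in fertile buds the sterile median was 8.12 RPKM, with a range from 0.369 to 205.4. As a share of the fertile level, the medians of the 4 classes were 2.16%, 1.23%, 0.469% and 0.386%. Many sterile values lay near the detection limit. In the 4 classes, 15 of 28, 17 of 35, 5 of 11 and 10 of 22 genes had 3 or fewer sterile reads. Since a gene had to be above 0 in sterile buds, very low shares could be seen only at high fertile levels. The limit of 8 allows higher sterile levels in genes with higher fertile levels, and the classes were not tested against each other. Among genes above 0 in sterile buds, such genes were a larger share of the most abundant transcripts. Genes at 0 in sterile buds are outside this comparison. The 108 of them under the same exclusions had a median of 183.9 RPKM in fertile buds. Without the exclusions, 162 genes with at least 100 RPKM in fertile buds were at 0 in sterile buds. Genes at 0 were not counted by class. With the named genes and the 2 genes in the identifier runs counted, 25 of 102 genes above 1000 RPKM in fertile buds and above 0 in sterile buds (24.5%) were at least 8-fold lower there, against 39 of 1174 genes (3.32%) with 100 to 200 RPKM.

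The authors' deposited table listed all 96 genes as higher in fertile buds, against 2.21% of all genes, which follows from their large folds. The highest q-value among the 96 was 5.35e-07 in the authors' deposited table, and their log2 fold changes of fertile over sterile ran from 3.27 to 13.14 there. Those fold changes carry a further scaling of 0.239 in log2 over the RPKM ratios used here, so the 2 scales differ.

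Within the same value limits, the 17 genes named in the authors' pathway table had, at the median, lower levels in fertile buds and smaller folds. Their median was 5.09 RPKM in sterile and 164.8 RPKM in fertile buds, and their median fold of 35.8 ranged from 12.7 to 367. They include Bra039216 (GGPS2), a synthase of isoprenoid precursors, with 8.7 RPKM in sterile and 593 RPKM in fertile buds. Bra006334 (SAMDC), a decarboxylase of polyamine synthesis, had 1.4 RPKM in sterile and 130.6 RPKM in fertile buds. Bra018160 (ASN1), an asparagine synthetase, had 7.24 RPKM in sterile and 119.7 RPKM in fertile buds. Both copies of the small heat shock gene ATHSP22.0 were among them, with 4.3 RPKM in sterile and 172.7 RPKM in fertile buds for Bra000703, and 4.92 RPKM in sterile and 151.7 RPKM in fertile buds for Bra027999. Sterile levels of the 17 thus lay within the range of the weakly retained genes, and 4 of the 17 rested on 3 or fewer sterile reads.

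Neighbouring Bra numbers were then compared. Whether consecutive numbers lie side by side on a chromosome was not analysed here. Of the 190 other genes at the numbers directly before or after a weakly retained gene, 41 were at 0 in both libraries and 24 in the sterile library alone. A further 118 were above 0 in both, as were 25685 of all 41019 genes. These shares are close, so the count says nothing particular about the neighbours. Of these 118, 83 differed by less than 2-fold. Their median log2 ratio of sterile over fertile was 0.20, equal to that of all genes above 0 in both libraries. Shares over all genes were not computed for the 41, the 24 and the 83. The authors' deposited table listed 12 of the 190 as higher in fertile buds, against 2.21% of all genes. The 190 neighbours had a median of 3.43 RPKM in sterile and 5.16 RPKM in fertile buds.

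A minority stood beside a gene with the same behaviour. Bra025355 and Bra025356 were the only weakly retained genes with consecutive numbers, so 2 of the 96 had another at the next number, against 0.468% of all genes. When any gene within the same value limits counted as a partner, named genes and genes at 0 in sterile buds included, 8 of the 96 (8.33%) had a partner at the next number, against 1.32% of all genes. Within 3 numbers 13 of the 96 (13.5%) had a partner, against 3.71% of all genes, and 6 (6.25%) had another weakly retained gene, against 1.38%. Within 5 numbers 14 (14.6%) had a partner, against 6.03% of all genes, and the same number of 6 had another weakly retained gene, against 2.29%. A gene that the authors' deposited table lists as higher in fertile buds stood at the next number for 13 of the 96, against 4.32% of all genes. Of the 108 genes at 0 in sterile buds, 15 (13.9%) had a partner within the same value limits at the next number and 20 (18.5%) within 3. Of the 18 distinct partners within 3 numbers, 12 were at 0 in sterile buds and 6 were weakly retained genes themselves. The following runs are those 13 genes, listed after their values were seen.

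One run holds the consecutive pair. Bra025355 had 0.347 RPKM in sterile and 400.5 RPKM in fertile buds, and Bra025356 had 0.669 RPKM in sterile and 313.9 RPKM in fertile buds. Each rested on 1 sterile read. Bra025354 (AT3G28780) and Bra025352 (AT3G28750), which lie before them, were at 0 in sterile buds, against 329.2 RPKM for Bra025354 and 3049 RPKM for Bra025352 in fertile buds. The number in between, Bra025353, differed little, with 3.99 RPKM in sterile and 5.64 RPKM in fertile buds. The authors' deposited description calls Bra025354 a protein of unknown function with a part in the pollen exine, the outer wall of pollen. The same Arabidopsis code AT3G28750 is paired with Bra039046, which was at 0 in sterile and at 112.1 RPKM in fertile buds and follows the weakly retained Bra039045. That gene had 0.393 RPKM in sterile and 637.3 RPKM in fertile buds.

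Another run held a gene with more sterile signal than its partners. Bra031319 had 14.8 RPKM in sterile and 408.4 RPKM in fertile buds, on 12 sterile reads. Bra031316, Bra031317 and Bra031320 were at 0 in sterile buds, against 145, 182.9 and 148.3 RPKM in fertile buds. Bra008230 had 0.386 RPKM in sterile and 239.5 RPKM in fertile buds and followed Bra008229 and Bra008228 (AT1G75870), both at 0 in sterile buds, against 228.1 and 282.9 RPKM in fertile buds. The next number after Bra008230 did not share this, since Bra008231 had 487.3 RPKM in sterile and 589 RPKM in fertile buds.

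In the other runs, pairs were made of 1 weakly retained gene and 1 gene at 0, or of weakly retained genes 3 numbers apart. Bra040474 followed Bra040473, which was at 0 in sterile and at 724.1 RPKM in fertile buds. Bra007666 had 0.98 RPKM in sterile and 395.3 RPKM in fertile buds and followed Bra007665, at 0 in sterile and 1502 RPKM in fertile buds. Bra004480 had 0.98 RPKM in sterile and 420.8 RPKM in fertile buds and preceded Bra004481, at 0 in sterile and 488.2 RPKM in fertile buds. All 3 of these weakly retained genes rested on 1 sterile read. Bra036578, the highest of the set in fertile buds, lay 3 numbers before Bra036581, which was at 0 in sterile and at 2235 RPKM in fertile buds. Bra014407 had 0.455 RPKM in sterile and 331.7 RPKM in fertile buds and lay 3 numbers before Bra014410. Bra027550 had 6.19 RPKM in sterile and 443.3 RPKM in fertile buds, and Bra027553 had 5.85 RPKM in sterile and 155.6 RPKM in fertile buds. This last pair had 6 and 12 sterile reads and similar sterile levels, at 71.6-fold and 26.6-fold below the fertile ones.

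**Figure D5:**
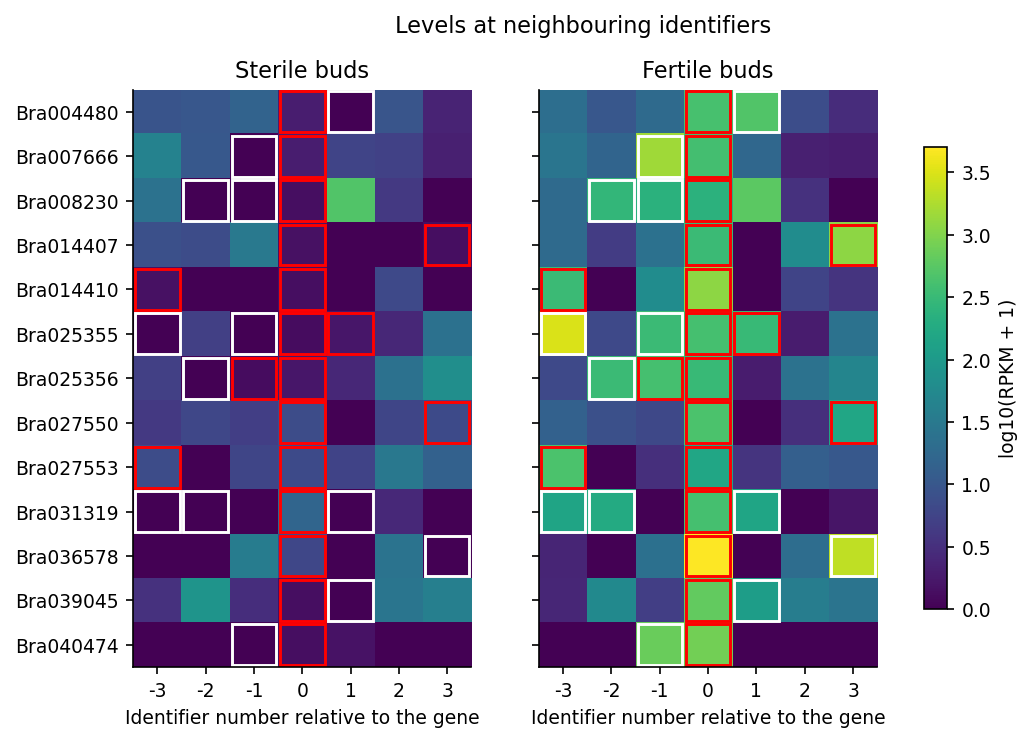
Levels in sterile (left) and fertile buds (right), as log10(RPKM + 1), at the 3 Bra numbers before and after each of the 13 weakly retained genes that have a partner there. Red frames mark weakly retained genes and white frames other genes within the same value limits, all of which are dark (0 RPKM) in sterile buds and bright (112.1 to 3049 RPKM) in fertile buds.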

How the data were processed

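Messenger RNA of 1 library of sterile and 1 library of fertile buds was analysed. The submitters' processing notes name TopHat. The sources used here give neither its version nor the genome build, annotation, read counter or treatment of reads that match several gene copies, so values of near-identical copies are uncertain. The authors deposited RPKM for 51357 features, of which 41019 were genes, per the file headers. Their table of 1012 genes gives, per the file headers, log2 fold change (fertile over sterile), p-value and q-value, from a test that is not stated.

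The 96 genes were chosen by value limits on the deposited RPKM. Genes, lists and limits were chosen with earlier results of these data known. The genes given in full were the 10 highest in fertile buds, the 6 highest in sterile buds, the 6 with the largest and the 6 with the smallest fold, the 3 nearest above 100 RPKM, the consecutive identifiers and the 3 genes outside each limit. RefSeq's table for assembly CAAS_Brap_v3.01 held 1 of the Bra identifiers and 0 of the 96.

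Whole reads were recovered as follows. For 475 genes at 0 in the sterile library, the authors' deposited folds scaled with the fertile reads, which came out whole within 1.08e-10 of a read. Their deposited p-values followed the reads closely. Applied to the 522 genes above 0 in both libraries with a p-value above 0, this relation gave multiples of the smallest reads that lay within 0.00376 of a whole number, and gene lengths that were multiples of 3 bp. For 6 of the 96 genes the p-value was listed as 0, and the smallest reads compatible with it were used. The library totals rest on the length step of 3 bp and, with steps of 1 bp, are 3 times as large. Read numbers do not depend on it. Intervals of ratios are 95% Clopper-Pearson intervals of the reads. A fold against 0 reads is a bound computed against 3 reads per library. The code for reads and intervals was run on simulated data made with the same p-value relation and with independent random counts. That run checked the code only. It could not test whether the relation or independent counts hold in these libraries.

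Alternatives were 2 scalings of the sterile library, other limits, a pseudocount of 1 RPKM, other distances between identifiers and other reads. Python 3.11.15 with SciPy 1.17.1, NumPy 2.4.6 and pandas 2.3.3 was used.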

Additional observations from a re-analysis of the deposited data

How the results depend on the processing

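Each group has 1 library, so no replicate could be left out, and counting intervals leave out variation between plants. No paired analysis was possible because each group has 1 library and the values come from no test. The number of weakly retained genes was 148 with a limit of 50 RPKM in fertile buds, in place of 96. Under the other limits, scalings and pseudocount it lay between 68 and 115, and each such set was a part of the 96 or held all of them. A rule on the lower end of the counting interval, added after seeing the data, left 83. The median log2 ratio of sterile over fertile ran from -6.43 to -5.82 under the scalings, the pseudocount and a sterile minimum of 1 RPKM, against -6.20. In the genes with over 3 sterile reads alone, also added later, it was -4.91, and the sterile median was 9.67 RPKM, against 3.37. That median was 2.86 to 5.45 RPKM under the scalings and the sterile minimum of 1 RPKM. With the smallest reads in place of the exact ones, 55 genes had 3 or fewer sterile reads, against 47. Weakly retained genes with another at the next number came to 2, to 6 with numbers up to 5 apart, and to 8 with any gene within the value limits as partner. Of the 25 weakly retained genes named for their level, fold or number, the log2 ratio of 24 stayed inside the counting interval under both scalings. It left the interval in Bra021109, the gene with the most reads.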

Other observations

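Gene lengths recovered with the reads gave a pattern that was noticed after the values were seen. Bra038907, Bra019004 and Bra012848 had the same length of 360 bp and were all among the 10 highest weakly retained genes in fertile buds. In sterile buds they had 39, 92.1 and 106.3 RPKM, against 3032, 2767 and 2147 RPKM in fertile buds, in the same order. The gene with the lowest sterile level thus had the highest fertile level. A length of 360 bp was recovered for 54 genes in all, 15 of them with at least 100 RPKM in fertile buds. For genes outside the authors' deposited table the recovered length is the smallest that fits, so these counts are approximate. A shared length does not show that genes are copies, and their sequences were not analysed here.

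A second pattern, also noticed after the values were seen, joins lengths and numbers. How many other genes have a length of 651 bp or a longer neighbour was not counted, so it does not show that these pairs are copies. Bra004480 and Bra007666 both had 651 bp, and Bra040473, at 0 in sterile buds, had 651 bp as well. Each stands at the number next to a longer gene within the same value limits, which was Bra004481 with 1779 bp, Bra007665 with 1719 bp and Bra040474 with 1791 bp. Of these 6 genes, 3 were at 0 in sterile buds and 3 had 1 sterile read, while their fertile reads ran from 464 to 4657.

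Among the 96, lengths were shared by 2 genes in 5 cases and by 3 genes in 1 case. How often other sets of 96 genes share lengths was not computed. The equal-length pair Bra025130 and Bra025879, of 606 bp, had 1 sterile read each, against 1454 and 119 fertile reads.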
